A study of Dendrobium officinale with 6 samples.

Results

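In leaves of the orchid Dendrobium officinale, some groups of genes that share an assembly identifier held members that moved in opposite directions after a spray of MeJA. MeJA (methyl jasmonate) is a volatile ester of jasmonic acid, a plant stress hormone. These groups are components of a de novo transcriptome assembly, and 53 components held at least 1 gene that was higher and 1 gene that was lower under MeJA. Together they gave 117 members, 58 up and 59 down, out of 60597 genes listed in 27180 components. Members were chosen from the measured values. A gene had to average 5 TPM or more across the 6 libraries, where TPM is a transcript level per length, set so that each library has the same total. The unit was inferred from the values. It was up when its lowest MeJA value was at least 1.5 times its highest control value, and down when its highest MeJA value was at most its lowest control value divided by 1.5. The component of a gene is its identifier without the final gene number. Because these values chose the members, the sizes and directions below are a description and carry no test.

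Leaf RNA of 6-month-old plants was sequenced in 3 control and 3 MeJA libraries. The controls were sprayed with ethanol solvent, and the MeJA leaves with 100 µM MeJA in ethanol and taken at 24 h. The sources used here give no sampling time for control leaves, so a difference in time cannot be told apart from MeJA. The plants grew at 25 °C with 12 h of light. The study asked which genes are regulated when MeJA leads to alkaloid accumulation. Whether each library stands for its own plant is not given, so the spread between libraries may be technical. In whole leaves, fewer cells of a type and less RNA per cell cannot be told apart.

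In plants, the active form of jasmonate is sensed by a receptor complex that marks repressor proteins for breakdown, which frees transcription factors such as MYC2. This pathway is known for shifting leaves from growth toward defence and for raising specialised metabolites, among them alkaloids. Without a genome, the Trinity assembler joins overlapping reads into graphs, and the genes of a component come from a shared graph. They can be members of a gene family, alleles of a locus, alternative forms of a transcript or fragments of it. No name, product or sequence is paired with the identifiers in these files, so the tissue could not be checked against marker genes and no role is given to any member. How reads that match several genes of a component were divided is not given in the sources used here, so levels of members with near-identical stretches are uncertain.

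Library totals were 999996 to 1000001 TPM, and the number of reads behind a value is unknown because TPM does not keep it. Across all genes, which are not independent replicates, Pearson's r of log2(TPM + 1) was 0.894 to 0.929 within groups and 0.838 to 0.856 between them. Among the 117 members, control library 1 held the middle of the 3 control values at 71, and MeJA library 1 held the middle of the 3 MeJA values at 85. These are 60.7% and 72.6% of the members, against 48.2% and 59.6% of all 21178 genes at 5 TPM or more, so library 1 was also the most frequent middle library over the whole table. Whether the libraries of a group are independent of each other was not tested.

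The minimum level was met by 21178 genes, of which 1338 (6.32%) were up and 1340 (6.33%) were down. This even split depended on the scaling and on 1 library. With median-ratio size factors 1754 genes were up and 837 down, with quantile normalization 1499 and 1130, and without MeJA library 2, on the deposited values, 1615 and 2630. The 58 up members were 4.33% of all up genes and the 59 down members were 4.4% of all down genes. Components that held an up gene numbered 1202, and components that held a down gene numbered 1241. A component can hold both only if it has at least 2 genes at 5 TPM, and 53 of 4155 such components (1.28%) held both. Most components whose genes moved in company moved one way, with 108 holding several up genes and no down gene and 80 holding several down genes and no up gene. Among 341 pairs of moving genes within a component, 163 pairs were both up, 114 were both down and 64 (18.8%) were opposite. The count of 53 components depended most on 1 library. It was 61 to 71 without any other single library, a rise largely built in, since leaving out a library can only loosen a separation. Without MeJA library 2 it was 104. Of those 104, 51 were among the 53, an overlap that the rule largely fixes, since leaving out a library cannot undo a separation.

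From 2 to 5 measured genes, components with more of them held both directions at a higher share. It was 12 of 2936 components (0.409%) with 2 genes at 5 TPM or more, 23 of 889 (2.59%) with 3, 14 of 242 (5.79%) with 4 and 4 of 64 (6.25%) with 5. None of the 24 components with 6 or more such genes held both. The share with at least 1 moving gene of either direction was also higher in larger components, at 21.7%, 30.4%, 39.3%, 40.6% and 41.7% in the same order. The 53 components listed 2 to 13 genes at any level, with a median of 5, against a median of 4 over the 4155 components with at least 2 genes at 5 TPM. In 43 components the members were 1 up gene and 1 down gene. In 5 there were 2 up genes and 1 down gene, in 4 there was 1 up gene with 2 down genes, and 1 component held 1 up gene with 3 down genes.

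Most members differed between the groups by more than 2-fold, as did most of all up and all down genes. On the scale of log2(mean TPM + 1), the up members differed from control by a median of 1.81 (range 0.83 to 4.19), and 54 of 58 reached 2-fold and 24 reached 4-fold. The down members differed by a median of -1.40 (range -3.34 to -0.79), with 50 of 59 at 2-fold and 14 at 4-fold. Over all 1338 up genes of the table the median was 1.74, and over all 1340 down genes it was -1.20. At least 2-fold differences made up 93.1% of up members and 88.2% of all up genes, and 84.7% of down members and 70.2% of all down genes. At least 4-fold differences made up 41.4% of up members and 39.3% of all up genes, but 23.7% of down members and 11.6% of all down genes. Both leading genes of a component differed at least 2-fold in 40 of the 53 components and at least 4-fold in 6. These counts are with 1 TPM added to each mean. By the plain ratio of means, which weighs low values more, 29 of 58 up members and 21 of 59 down members differed at least 4-fold. So did 46.0% of all 1338 up genes and 17.6% of all 1340 down genes. Both leading genes of a component did so in 10 components. The leading gene is the up member with the highest MeJA mean or the down member with the highest control mean. Over all genes at 5 TPM or more the median was -0.18 on the same log2 scale.

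**Figure D1:**
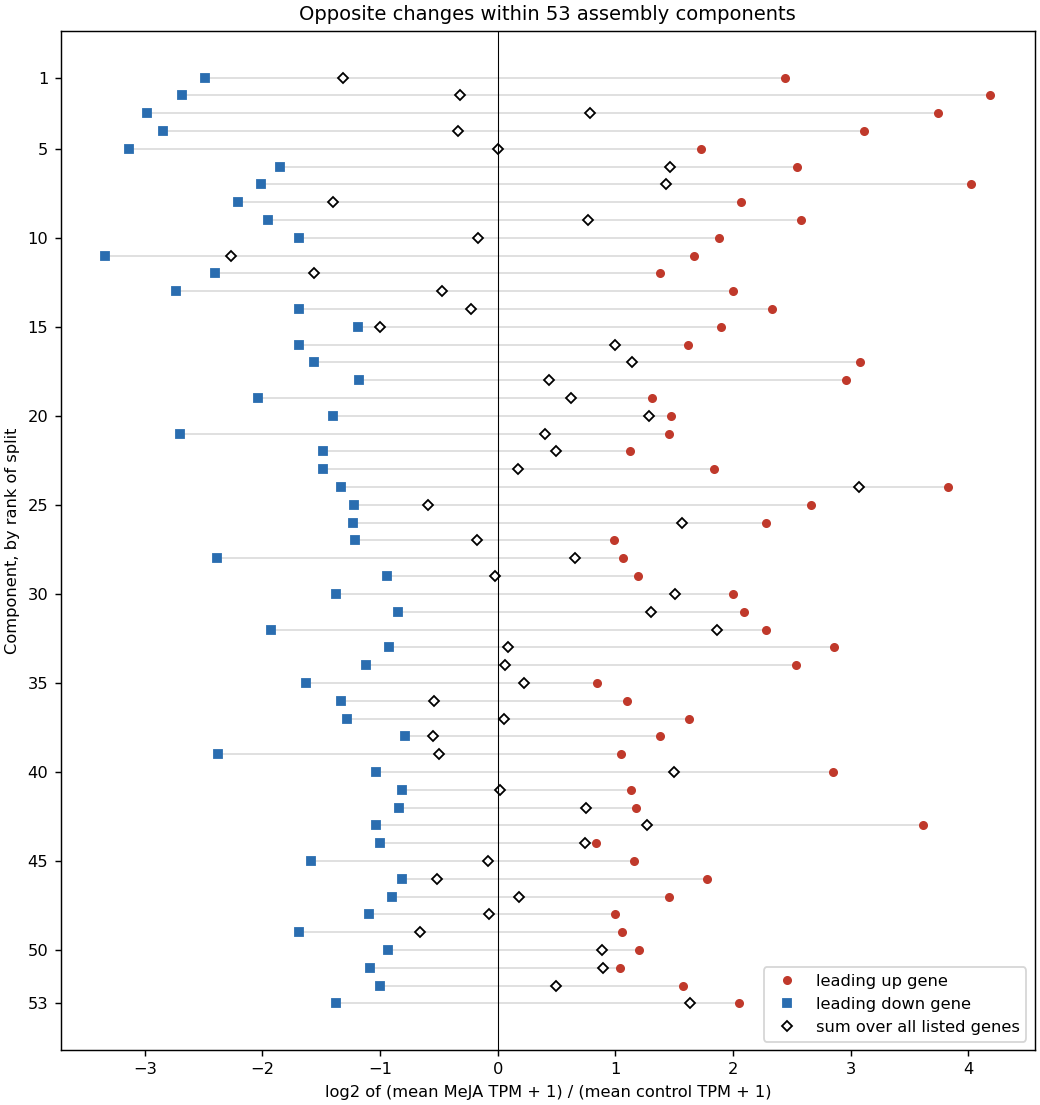
Log2 ratio of MeJA to control mean (1 TPM added to each) for the leading up gene, the leading down gene and the sum over all listed genes of each of the 53 components, with components in order of split from 1 at the top to 53. Leading up genes lie at 0.83 to 4.19 and leading down genes at -3.34 to -0.79, a gap that the choice of members fixes, while the sums fall on both sides of 0.

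Most members averaged 5 TPM or more in both groups. The up members had a median control mean of 10.9 TPM and a median MeJA mean of 48.7 TPM. Of the 58, 17 had a control mean under 5 TPM and 2 had one under 1 TPM. Those 2 were each listed at 0 in 1 control library and held 11.1 to 12.9 TPM and 13.1 to 16.1 TPM under MeJA. The down members had a median control mean of 25.4 TPM and a median MeJA mean of 8.05 TPM. Of the 59, 21 had a MeJA mean under 5 TPM, none had one under 1 TPM and none was listed at 0 in any library.

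Components were ranked by their split, the smaller of the 2 separations between groups shown by the most separated up gene and the most separated down gene, each with 1 TPM added. In the component ranked 1 by split, the up gene TRINITY_DN21128_c2_g4 held 5.43, 4.36 and 4.58 TPM in control libraries 1 to 3 and 32.2, 34.5 and 24.8 TPM in MeJA libraries 1 to 3. Its partner TRINITY_DN21128_c2_g6 held 126.5, 102.4 and 118.4 TPM in the controls and 18.0, 26.8 and 14.8 TPM under MeJA. The groups do not overlap for either gene, and the more abundant of the pair in every control library was the less abundant in every MeJA library. The up gene went from 4.79 ± 0.57 to 30.5 ± 5.1 TPM and the down gene from 115.7 ± 12.2 to 19.9 ± 6.2 TPM (SD, n = 3 each), log2 ratios of 2.44 and -2.48. A second down gene of this component went from 16.1 ± 2.4 to 4.27 ± 2.67 TPM. The sum over the 6 listed genes of the component was 147.2 ± 18.1 TPM in controls and 58.7 ± 14.8 TPM under MeJA, so the up gene gained less TPM than the down genes lost. The up gene's share of that sum was 3.27% ± 0.33 in controls and 52.8% ± 5.7 under MeJA.

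The component ranked 2 held the up member with the largest log2 ratio of the 58 when 1 TPM is added to each mean. By the plain ratio of means another up member, at 0.24 ± 0.27 TPM in controls and 14.7 ± 1.5 TPM under MeJA, stood above it. Its up gene TRINITY_DN20570_c3_g7 held 2.78, 3.32 and 0.36 TPM in the controls and 65.2, 31.7 and 72.4 TPM under MeJA, with MeJA library 2 the lowest of the 3 and still far above every control. Its down gene TRINITY_DN20570_c3_g6 held 23.9, 21.4 and 23.0 TPM in the controls and 2.12, 5.45 and 0.53 TPM under MeJA, and here MeJA library 2 was the highest of the 3. The log2 ratios were 4.19 and -2.68, from means of 2.15 ± 1.58 to 56.4 ± 21.7 TPM and of 22.8 ± 1.3 to 2.70 ± 2.51 TPM (SD, n = 3 each). This pair was a small part of its component, whose 7 genes summed to 643.7 ± 4.7 TPM in controls and 514.6 ± 16.2 TPM under MeJA. Most of that sum came from a further gene that was not a member, at 573.5 ± 6.2 and 414.0 ± 39.7 TPM, which was lower in every MeJA library but did not reach the 1.5-fold limit.

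The components ranked 3 to 10 spanned lower and higher levels. At rank 3 the up gene held 0.78, 3.14 and 1.18 TPM in controls and 37.0, 11.3 and 56.9 TPM under MeJA, and the down gene 22.8, 24.5 and 21.5 TPM and then 1.92, 2.73 and 1.44 TPM. MeJA library 2 showed the smallest change of the 3 for both genes. At rank 4 the up gene went from 2.72 ± 1.1 to 31.1 ± 5.4 TPM and the down gene from 25.1 ± 9.3 to 2.64 ± 2.61 TPM, with a value of 0.03 TPM in MeJA library 3. At rank 5 the up gene went from 7.44 ± 0.93 to 26.9 ± 0.9 TPM and the down gene from 35.1 ± 5.9 to 3.12 ± 0.43 TPM, while the sum over the 3 listed genes was 74.0 ± 8.4 TPM in controls and 74.1 ± 3.8 TPM under MeJA. On the deposited scaling, the summed level of this component was similar in the groups while its makeup differed. Rank 6 had partners of similar level in controls, with its up gene at 38.1 ± 2.0 TPM and its down gene at 39.8 ± 6.1 TPM. Under MeJA they held 226.6 ± 54.6 and 10.3 ± 2.2 TPM. At rank 7 the MeJA values of the up gene were close together, at 333.1, 334.2 and 332.3 TPM against 20.0, 8.30 and 30.5 TPM in controls. Those of the down gene were not, at 27.9, 31.6 and 15.1 TPM under MeJA. The down gene went from 103.5 ± 14.0 to 24.9 ± 8.7 TPM.

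At rank 8 the down gene stayed the larger partner. It held 364.9, 398.2 and 329.9 TPM in controls and 81.9, 102.6 and 50.1 TPM under MeJA, and its up gene held 3.15 ± 1.29 and 16.4 ± 3.0 TPM. At rank 9 the leading up gene went from 33.2 ± 8.7 to 203.5 ± 23.2 TPM and the down gene from 47.3 ± 11.2 to 11.5 ± 2.4 TPM. At rank 10 the values were 5.15 ± 2.19 to 21.6 ± 4.1 TPM and 25.4 ± 3.2 to 7.18 ± 1.71 TPM. Of these 10 components, the up gene passed the down gene in 8 and the exceptions were ranks 6 and 8. The 43 components ranked 11 to 53 had log2 ratios of 0.83 to 3.83 for the leading up gene and -3.34 to -0.79 for the leading down gene.

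**Figure D2:**
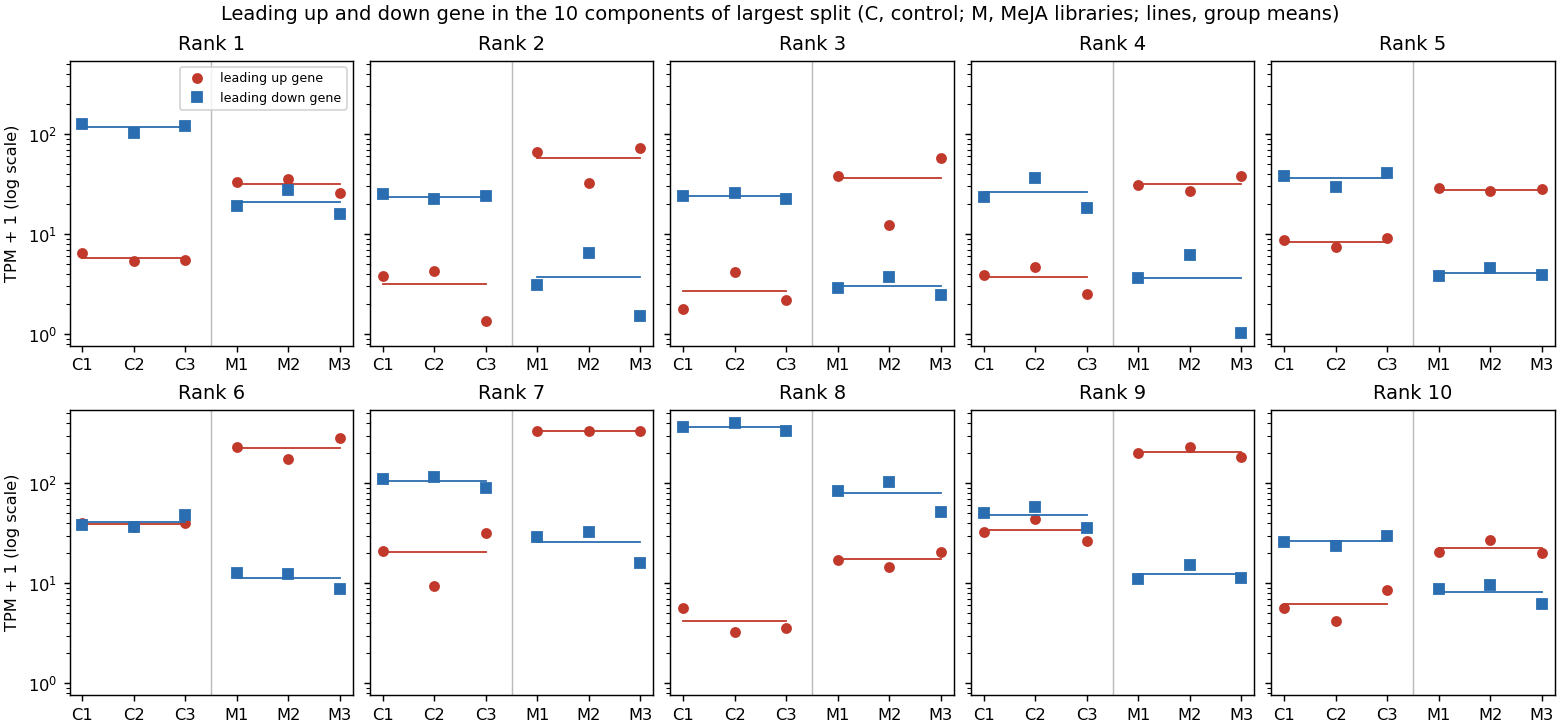
Level of the leading up gene (circles) and leading down gene (squares) in each control (C1 to C3) and MeJA (M1 to M3) library for the 10 components of largest split, as TPM + 1 on a log axis, with lines at the group means. In 8 of the 10 panels the circles lie below the squares in all 3 controls and above them in all 3 MeJA libraries. At rank 6 the genes have similar levels in controls, and at rank 8 the squares lie on top in every library.

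Levels of the leading genes were compared within a component on the premise that the values are per length, as TPM are, and that reads shared by both genes do not decide their order, neither of which the files settle. In 26 of the 53 components the leading up gene was below the leading down gene in every control library and above it in every MeJA library, so that the most expressed of the pair changed. The median levels in these 26 were 6.60 TPM for the up gene and 27.4 TPM for the down gene in controls, and 31.6 and 7.10 TPM under MeJA. In 15 components the up gene was the higher partner in all 6 libraries, with a median of 75.0 TPM in controls and 229.6 TPM under MeJA beside a down gene of 13.2 and 5.74 TPM. In 8 components the down gene was the higher partner in all 6 libraries, at 227.0 and 81.4 TPM, beside an up gene of 6.06 and 18.7 TPM. The order within a group was mixed in the last 4. The 26 became 47 of 104 components without MeJA library 2, and 29 to 35 without any other single library.

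**Figure D3:**
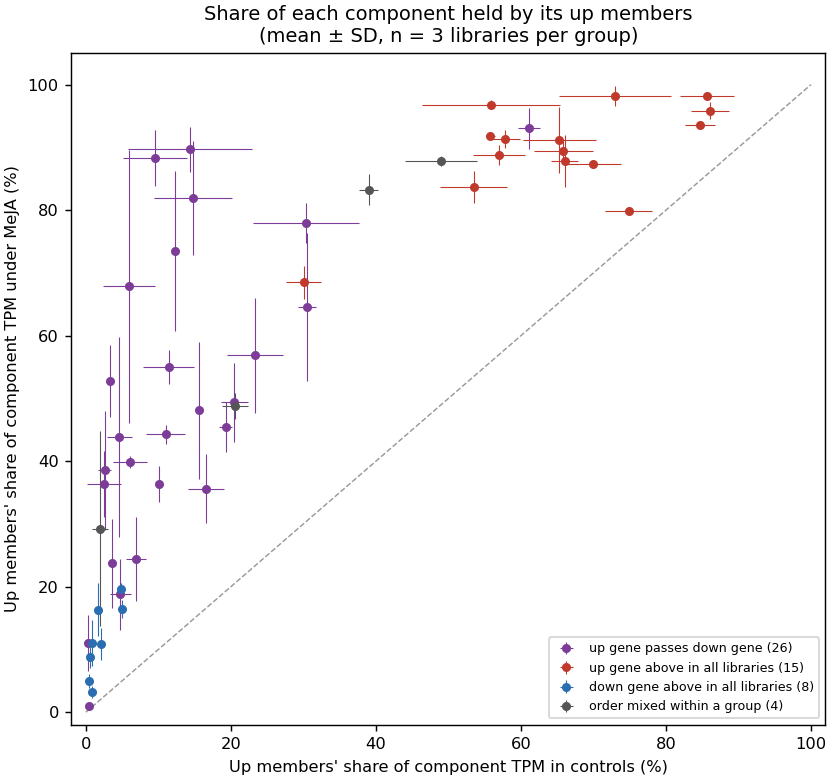
Share of each component's summed TPM held by its up members in controls (horizontal axis, %) and under MeJA (vertical axis, %), as mean ± SD over 3 libraries, coloured by the order of the leading genes. All 53 points lie above the dashed line of equal shares, a side that the choice of members largely fixes, and the median share is 14.8% in controls and 55.0% under MeJA.

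The summed level of a component was not itself used in the rule, but it includes the members' values, which were. Members held at least 90% of it in 19 components. It is given without a test. The sum over all listed genes was higher in every MeJA library in 26 components, by at least 1.5 times in 14 of them. It was lower in every MeJA library in 13 components, by at least 1.5 times in 5. In the other 14 the groups overlapped, with a ratio of means from 0.70 to 1.75. Among all 4155 components with at least 2 genes at 5 TPM, 5.37% had sums at least 1.5 times higher, 4.65% had sums lower by that factor and 40.3% had overlapping sums. The 53 were chosen to hold moving genes, so their difference from these shares is largely fixed. The ratio of MeJA to control sums ran from 0.21 to 8.45 over the 53 components, with a median of 1.13. In 8 components it lay between 0.9 and 1.1 on the deposited scaling, and the leading up gene passed the leading down gene in each of these 8. Of the 14 components with overlapping sums, 13 were among the 26 in which the order of the pair changed. Both are largely fixed, since a sum tends to follow a partner that is the higher one throughout. The ratio ran from 1.18 to 8.45 where that was the up gene and from 0.21 to 0.70 where it was the down gene. The 19 components with sums changed by at least 1.5 times became 37 without MeJA library 2, 27 higher and 10 lower. They became 22 to 25 without any other single library.

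Pooled over the 53 components, the summed level of the up members was 2098, 2132 and 2039 TPM in the controls and 8107, 7264 and 8803 TPM in MeJA libraries 1 to 3. The down members summed to 7709, 7690 and 7837 TPM and then to 1502, 1827 and 1254 TPM. MeJA library 2 lay nearest to the controls in both sums and MeJA library 3 farthest. The sum over all 283 listed genes was 13476 ± 67 TPM in controls and 13438 ± 350 TPM under MeJA (SD, n = 3 each), so the pooled level overlapped between groups. That balance rested on 1 component: without the component of the most abundant down member, the sums were 8452 ± 14 and 12394 ± 477 TPM. The down members other than that gene went from 3130 ± 32 to 1072 ± 224 TPM. All these sums are on the deposited scaling. Median-ratio size factors moved the median log2 ratio of genes at 5 TPM or more from -0.18 to 0.02. Pooled sums with those factors were not taken.

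**Figure D4:**
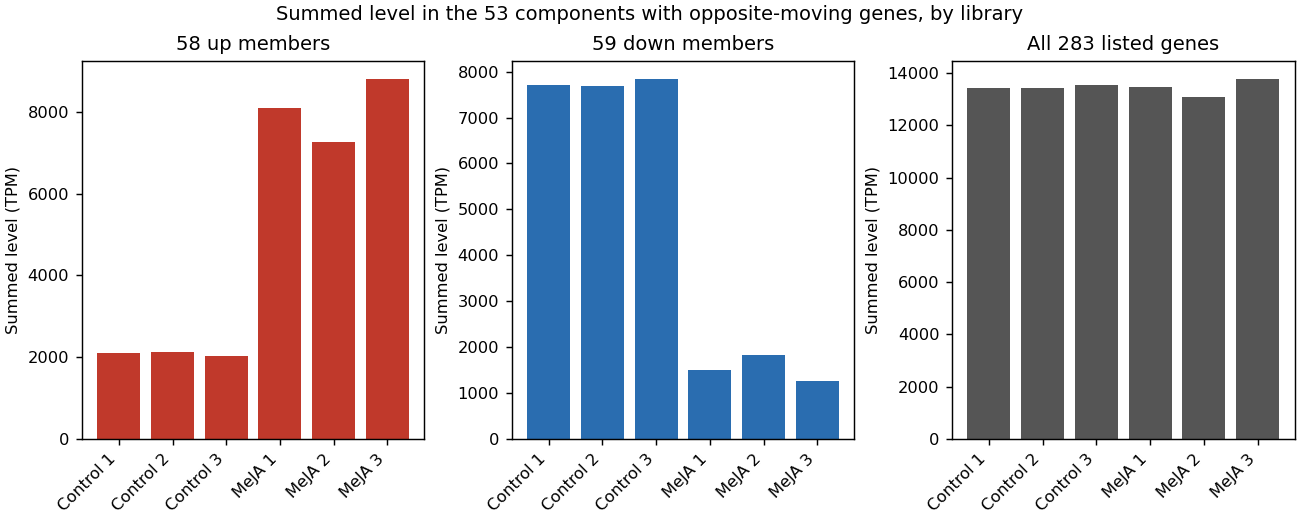
Summed TPM of the 58 up members, the 59 down members and all 283 listed genes of the 53 components in each library (bars, axes start at 0). The up members' sum is 2039 to 2132 TPM in controls and 7264 to 8803 TPM under MeJA. On this deposited scaling, the sum over all genes lies between 13074 and 13773 TPM.

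The 3 components whose members had the highest summed mean level each had partners of unequal size. The first, ranked 11 by split, held the most abundant down member, at 4577, 4594 and 4676 TPM in controls and 440.5, 526.5 and 401.5 TPM under MeJA. Its log2 ratio of -3.34 was the lowest among the 59 down members with 1 TPM added. By the plain ratio of means, 10.1 for this gene, the down genes at ranks 3 and 5 by split stood above it at 11.3 each. In the same component the up gene went from 28.5 ± 6.8 to 92.8 ± 29.2 TPM. A pair of its other genes were also higher in every MeJA library without reaching 1.5 times, at 163.8 ± 5.9 and 222.9 ± 52.2 TPM and at 200.4 ± 4.4 and 258.6 ± 15.0 TPM. The sum of this component was 5024 ± 59 TPM in controls and 1044 ± 128 TPM under MeJA, so the gains made up little of the loss.

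The component with the next highest level, ranked 30 by split, held the most abundant up member, at 294.1, 362.2 and 246.7 TPM in controls and 1274, 625.2 and 1722 TPM under MeJA. Its down gene held 89.0, 90.6 and 94.1 TPM and then 34.2, 53.2 and 16.4 TPM. The control values of the down gene were close together, whereas both genes changed least in MeJA library 2 and most in MeJA library 3. The component after it, ranked 24, held an up gene at 80.8, 104.2 and 52.1 TPM in controls and 1117, 1126 and 1163 TPM under MeJA. Its down gene went from 13.2 ± 0.8 to 4.62 ± 1.34 TPM, and its sum went from 138.7 ± 23.8 to 1172 ± 19 TPM, the highest ratio of sums among the 53 components.

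The component with the most members, ranked 13, held 3 down genes and 1 up gene. The down genes went from 19.1 ± 1.5 to 2.01 ± 1.16 TPM, from 12.6 ± 1.0 to 2.96 ± 0.31 TPM and from 10.8 ± 1.1 to 2.60 ± 0.14 TPM. The up gene held 7.91, 6.38 and 7.60 TPM in controls and 32.2, 18.5 and 45.7 TPM under MeJA. In every control library the up gene was below each of the 3 down genes, and in every MeJA library it was above each of them. Its share of the component's sum was 12.3% in controls and 73.5% under MeJA, and the down genes together went from 71.7% ± 2.5 to 19.2% ± 7.6.

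The 53 components also listed 166 genes that were neither up nor down by the rule, 52 at 5 TPM or more and 114 below. The 52 lay in 35 components, and the other 18 components had no gene at 5 TPM or more beside their members. In 16 of the 52 (30.8%) the MeJA libraries lay above all controls without reaching the limit, in 20 (38.5%) they lay below and in 16 the groups overlapped. Among all 18500 genes at 5 TPM or more that were neither up nor down, 11.3% lay above and 39.8% below. The median log2 ratio of the 52 was -0.11 (range -1.12 to 1.48), against -0.18 for the 18500. The 114 lower genes had a median level of 1.95 TPM, and 13 of them would have been up and 21 down had no minimum level been set. Matching shares over all genes below 5 TPM were not taken, so these counts have no background. Members held at least 90% of the summed TPM in 19 components and less than 50% in 10.

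Spread within the groups was larger where a gene was lower. The median coefficient of variation (SD as a percentage of the mean) of the up members was 17.9% in controls and 12.7% under MeJA, and that of the down members was 7.99% in controls and 24.3% under MeJA. Over all up genes the medians were 17.5% and 16.9%, and over all down genes 8.17% and 19.5%. Within the MeJA group, the library with the highest value for the leading up gene also had the lowest value for the leading down gene in 28 of 53 components. This was MeJA library 3 in 21 of the 28, library 2 in 5 and library 1 in 2. Within the control group the matching count was 14 of 53. MeJA library 3 held the lowest value of the leading down gene in 35 components and MeJA library 2 the highest in 37. For the leading up gene, MeJA library 3 was highest in 28 components and MeJA library 2 in 21. Matching counts over all up and down genes were not taken. A trait of these pairs therefore cannot be told apart from one of the libraries. MeJA library 1 was the most frequent middle library over the whole table as well.

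The 1.5-fold limit cut through a continuous range. By the smaller of the separations of the best up and best down gene, with nothing added, the 3 components just inside had 1.504, 1.52 and 1.52 and the 3 just outside had 1.49, 1.49 and 1.49. There were 11 components from 1.5 to 1.6 and 32 from 1.4 to 1.5. In the component nearest the limit on the inside, the up gene held 3.02, 2.78 and 2.40 TPM in controls and 8.87, 12.2 and 9.29 TPM under MeJA. Its down gene held 10.7, 6.38 and 6.15 TPM and then 3.07, 2.96 and 4.09 TPM, so that the highest MeJA and the lowest control value set its place.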

How the data were processed

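The authors deposited 1 value per assembled gene and library, for 6 libraries. Their unit is not named in the headers or labels. It was taken to be TPM from the deposited values themselves: each library totals 999996 to 1000001, and low values share no common step. The identifiers have the form written by Trinity. The sources used here do not state the assembler version, quantification tool, filters or annotation. No count model was used, since TPM values hold no whole reads. Libraries were grouped by their titles.

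The members and lists were chosen with earlier results of these data known. The rule was applied to the deposited TPM without rescaling, using Python 3.11.15, numpy 2.4.6 and pandas 2.3.3. It was also run on simulated libraries with planted changes well above the 1.5-fold limit, which cannot show how it acts near that limit. Levels are means ± SD over 3 libraries, and log2 ratios use a pseudocount of 1 TPM, which understates changes of low genes. No test was run, since all 6 libraries chose the members. Without gene names, at most 2 up and 2 down identifiers are printed, those of the 2 components with the largest split. Components ranked 3 to 10, the 3 with the highest members' level, the one with most members and those at the limit are described by rank. Alternatives were another scaling, level minimum, fold or component definition, a pseudocount of 0.1 TPM, libraries left out and, added after the data were seen, ratios within same-numbered libraries.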

Additional observations from a re-analysis of the deposited data

How the results depend on the processing

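Each set of 5 counts below gives components with both directions, up members, down members, components in which the up gene passed the down gene and components with sums changed by at least 1.5 times. As reported these were 53, 58, 59, 26 and 19. A minimum mean of 1 TPM gave 244, 305, 309, 104 and 56, and one of 10 TPM gave 31, 33, 34 and 10, with the fourth count within 1.5 times. A 2-fold separation gave 21, 23, 24, 14 and 10, and any separation of the groups gave 568, 635, 689, 110 and 64. These changes follow from how many genes each limit admits. Joining the components that share a DN number, the identifier without component and gene numbers, gave 109, 122, 123, 52 and 34. Leaving out 1 library gave 61 to 104 components, 70 to 117 up members, 68 to 116 down members, 29 to 47 passing pairs and 22 to 37 changed sums, with the highest counts without MeJA library 2. A replicate block asked the 1.5-fold ratio within each pair of same-numbered libraries. It was added after the data were seen and gave 78, 88, 87, 31 and 22. All 53 components were among the 78, as they had to be, since a gene separated over all libraries is separated in each pair. The correlation of deviations from the group means was 0.11, -0.01 and -0.02 for libraries 1, 2 and 3 of the groups, and not every library correlated best with its own number, so the numbers are not shown to pair the samples. Median-ratio size factors, which moved the median log2 ratio of genes at 5 TPM or more from -0.18 to 0.02, gave 47 components, of which 37 were among the 53. Quantile normalization gave 56 components, 47 of them among the 53. Libraries 2 and 3 of each group alone gave 71 components, which held 52 of the 53. Such an overlap is largely fixed, since with fewer libraries only the 5 TPM minimum can drop a gene. The 4 named genes kept their direction under every alternative run for them, which their choice by wide separation largely fixed. With a pseudocount of 0.1 TPM the log2 ratio of TRINITY_DN21128_c2_g4 was 2.65 in place of 2.44. Since the number of reads is unknown, values of members at few TPM have an unknown counting error.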

Other observations

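Opposite-moving genes were also found between components that share a DN number, the level above the component in the assembler's identifiers. Of the 5065 DN numbers with at least 2 genes at 5 TPM or more, 109 (2.15%) held at least 1 up and 1 down gene, with 245 such genes. In 56 of the 109 no single component held both, so the up and down genes lay in different components of the same DN number.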
